A study of Oryzias latipes with 50 samples.

Results

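Medaka carry several copies of the genes that form the second feedback loop of the circadian clock, and 9 of them were followed here through 2 years in one brain block. The 9 genes are those of 23455 in the deposited table whose description names nuclear receptor subfamily 1 group D (Rev-erb), nuclear receptor ROR or a class E basic helix-loop-helix protein of the DEC type, or whose symbol is bhlhe40, bhlhe41 or dec1a, with a mean of at least 1 FPKM. No row that matched these names fell under that mean. The rule uses names and the mean level only, but it was set with earlier results of these data known. They comprise 4 Rev-erb genes (nr1d1 LOC101174341, nr1d1 LOC101173939, nr1d2 LOC101156434 and nr1d2 LOC101163230), 3 ROR genes (ROR-beta LOC101170052, ROR-beta LOC101164545 and ROR-alpha LOC101172927) and 2 DEC genes (bhlhe41 and dec1a). The dec1b, rora and rorb genes carry descriptions that the rule missed, and they are described apart at the end.

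In mammals, the Rev-erb proteins are nuclear receptors that bind ROR response elements and silence the genes there through the corepressor NCoR and the deacetylase HDAC3. ROR proteins bind the same elements and activate. Among the shared targets is Bmal1 (Arntl), the partner of CLOCK, and the CLOCK and BMAL1 pair in turn drives the Rev-erb genes through E boxes, which closes the loop. DEC proteins (bhlhe40, also DEC1, and bhlhe41, also DEC2) are basic helix-loop-helix repressors that compete at E boxes. Many clock transcripts, those of the Rev-erb genes among them, cycle through the day in mammals and in fish, so a level at a fixed clock hour also depends on where that hour falls in the daily cycle.

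The tissue was a piece of Oryzias latipes brain that comprises hypothalamus, ventral telencephalon and pituitary, from fish kept outside in Okazaki, Japan, at 35.0 degrees north under natural light and temperature. The block was sampled around 8 pm on 25 dates, about 1 a month from September 2015 to September 2017, with 2 libraries a date and 50 in all. No fish received a treatment, so a group is a set of dates: summer is the 6 dates of June to August, winter the 6 of December to February, rising days the 6 of February to April, and falling days the 7 of August to October. The labels give no strain, age or sex, nor the number of fish behind a library, and p-values therefore rest on the scatter of the dates alone. The fits treat the 25 dates as independent, although neighbouring dates are not. Each season was also seen in few years, so the p-values may be too small.

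Values are the deposited FPKM, fragments scaled by transcript length and library size, and differences are on the scale of log2(FPKM + 1), which understates the change of low genes. The FPKM sums of the libraries ran from 278558 to 341666, and libraries of the same date had a median correlation of 0.982 over genes. Pituitary markers were abundant, 4 of 7 list entries being matched with a summed level of 570 to 2458 FPKM per library, and 5 of 9 forebrain entries were matched. The 5 matched retina and pineal genes each had a mean under 1 FPKM, with a summed level of 0.4 to 5.75 FPKM per library. The summed level of the 8 midbrain and hindbrain genes was 63.2 to 83.5 FPKM on the 10 dates to June 2016 and 32.7 to 42.0 FPKM on the 15 dates from July 2016, so the ranges do not overlap. In such a bulk block, fewer cells of a type and less RNA per cell cannot be told apart.

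All 9 genes were detected in every library, and their levels over dates (mean ± SD, n = 25 dates) spanned a wide range. The most abundant was nr1d1 LOC101174341 at 43.3 ± 23.9 FPKM, followed by ROR-beta LOC101170052 at 39.7 ± 17.6 FPKM and bhlhe41 at 37.5 ± 18.9 FPKM. Then came dec1a at 19.8 ± 14.4 FPKM, nr1d2 LOC101156434 at 16.7 ± 4.99 FPKM, nr1d1 LOC101173939 at 11.2 ± 6.35 FPKM and nr1d2 LOC101163230 at 10.8 ± 5.44 FPKM. ROR-beta LOC101164545, at 5.26 ± 2.1 FPKM, and ROR-alpha LOC101172927, at 2.61 ± 1.12 FPKM, were the scarcest. Only the last 2 steps of this order were larger than the SD of the neighbouring genes over dates, although bhlhe41 was above dec1a and LOC101164545 above LOC101172927 on 25 of 25 dates each. The order at the top changed through the year, with LOC101174341 above ROR-beta LOC101170052 on 11 of 25 dates.

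Each gene varied far more between dates than within them. The SD between dates was 3.04 to 8.95 times that between the 2 libraries of a date on the log2 scale. The highest date was 4.28 times the lowest for LOC101172927 and 9.54 times for dec1a, with the other 7 genes in between.

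**Figure D1:**
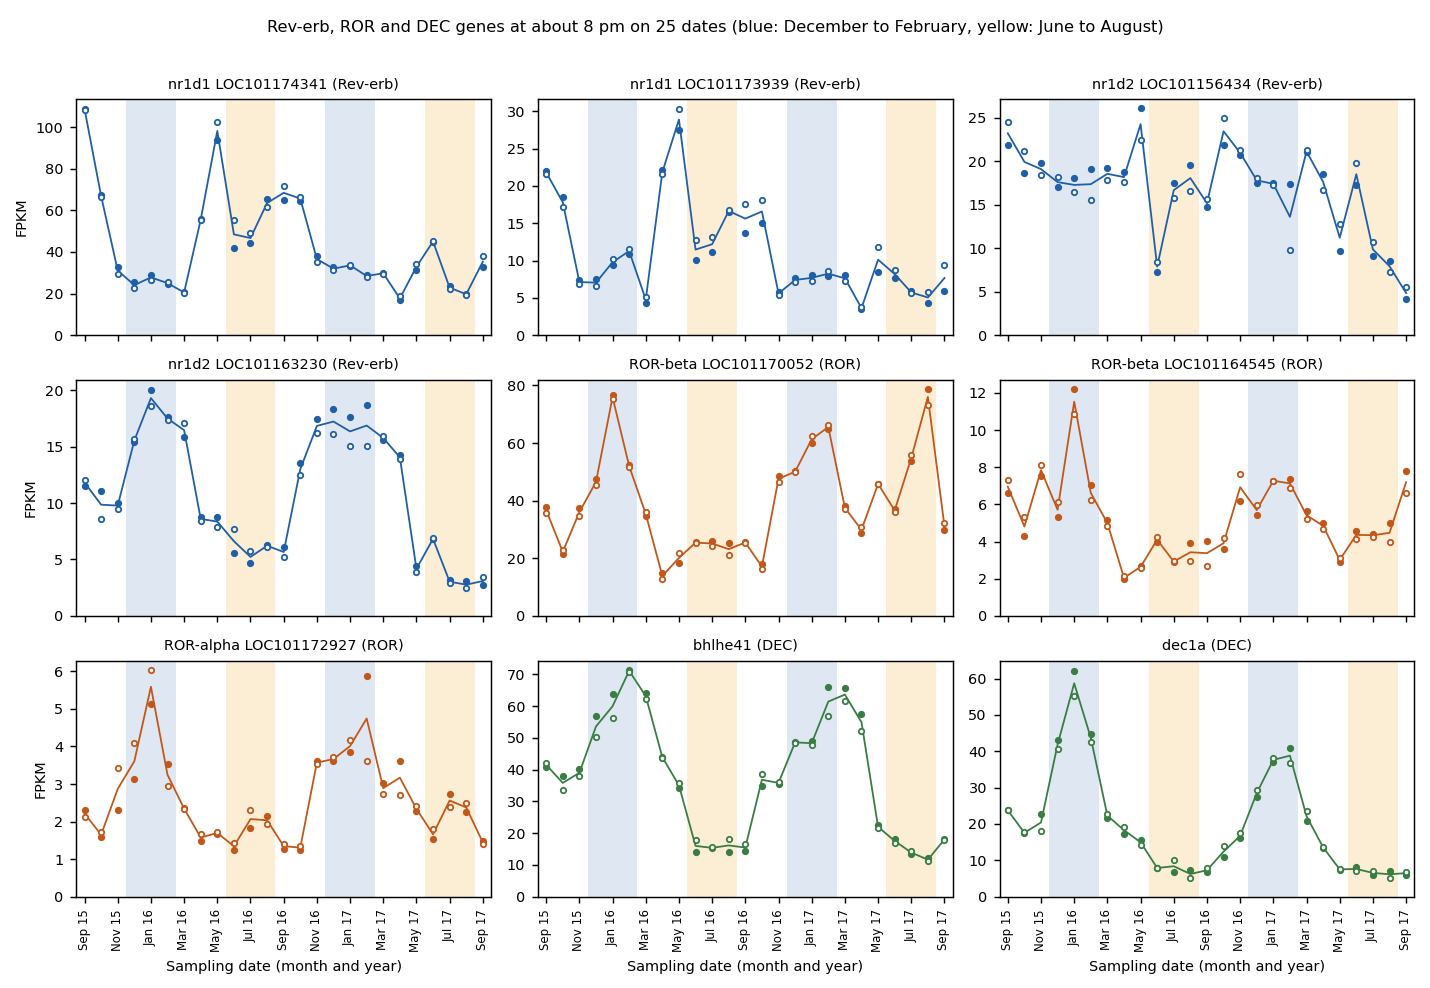
FPKM of the 9 genes (vertical axes, linear from 0) on the 25 sampling dates (horizontal axes). Points are the libraries, filled for replicate 1 and open for replicate 2, lines join date means, and shading marks December to February and June to August. The DEC genes and nr1d2 LOC101163230 are high in both winters. The nr1d1 genes are high in September and October 2015, in April and May 2016 and from August to October 2016. ROR-beta LOC101170052 is high in both winters and again in July and August 2017.

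An annual curve, a cosine and sine of the day of the year fitted to all 25 date means, asked which of the genes followed the year. It passed the test for 5 of the 9 genes, both DEC genes, nr1d2 LOC101163230, ROR-beta LOC101164545 and ROR-alpha LOC101172927, against 53.4% of the 16493 genes tested. The median range of the fitted curve, top to bottom, was 0.91 over the 9 genes and 0.36 over all genes tested. The fitted peaks of the 5 genes that passed fell between December 25 and February 5. The curve took up 83.9% of the variance between dates for bhlhe41 and 7.52% for nr1d1 LOC101173939, with a median of 30.8% over all genes tested.

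The DEC repressors had the clearest winter course. The level of dec1a was 28.5 to 58.7 FPKM on the winter dates, with a median of 40.3 FPKM, and 6.16 to 8.37 FPKM on the summer dates, with a median of 7.07 FPKM. All 6 summer dates thus lay below every winter date, and the mean was 7.13 ± 0.946 FPKM in summer (SD, n = 6) against 41.5 ± 9.92 FPKM in winter (SD, n = 6). The difference of -2.37 ± 0.26 (log2, SE) was the largest among the 9 genes, with an adjusted p of 3.39e-07 in limma.

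For bhlhe41, winter dates ran from 48.3 to 71.1 FPKM with a median of 56.8 FPKM, and summer dates from 11.6 to 17.5 FPKM with a median of 15.7 FPKM. The groups were again separate, with means of 57.2 ± 8.77 and 15.1 ± 2.07 FPKM and a summer against winter difference of -1.85 ± 0.23 (adjusted p 1.23e-06). The fitted peaks were January 26 ± 4.99 days (SE) for dec1a and February 5 ± 5.01 days for bhlhe41. The shapes differed away from midwinter: in March and April bhlhe41 had a level of 43.9 to 63.6 FPKM and dec1a a level of 13.6 to 22.3 FPKM.

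Of the Rev-erb genes, nr1d2 LOC101163230 shared the winter course. Its winter dates lay between 15.5 and 19.3 FPKM with a median of 17.1 FPKM, and its summer dates between 2.77 and 6.83 FPKM with a median of 5.72 FPKM. No summer date reached a winter date, and the level fell by 1.63 ± 0.30 on the log2 scale from winter to summer (adjusted p 7.19e-05), with a fitted peak on January 27 ± 6.13 days. Its counterpart nr1d2 LOC101156434 had 17.3 to 17.8 FPKM on 5 of the 6 winter dates and 13.6 FPKM in February 2017, and spread over 7.87 to 18.5 FPKM in summer, with medians of 17.4 and 13.3 FPKM. These groups overlap, and neither the annual curve (range 0.57, adjusted p 0.174) nor summer against winter (-0.41 ± 0.27, adjusted p 0.21) passed.

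Neither nr1d1 gene passed the test of the annual curve, with a range of 0.91 ± 0.33 for LOC101174341 (adjusted p 0.0682) and 0.53 ± 0.36 for LOC101173939 (adjusted p 0.448). A 6-month term added to that curve did not pass either, at 0.63 ± 0.33 (adjusted p 0.428) and 0.47 ± 0.37 (adjusted p 0.71). Over the first 13 dates, nr1d1 LOC101174341 lay at 108.6 FPKM in September 2015, 24.0 FPKM in December, 20.5 FPKM in March, 98.1 FPKM in May, 46.7 FPKM in July and 68.4 FPKM in September 2016. High values thus stood in September and October 2015, in April and May 2016 and from August to October 2016, with lower ones between. On the dates with values above, the other nr1d1 gene, LOC101173939, was highest in May, at 21.8, 7.03, 4.77, 28.9, 12.2 and 15.6 FPKM. It was also at 21.9 FPKM in April 2016. In August and October 2016 LOC101173939 was at 16.6 FPKM each, and LOC101174341 at 63.5 and 65.6 FPKM. September 2016 was thus no separate peak for either gene. The high spring values of LOC101174341, 55.5 FPKM in April and 98.1 FPKM in May 2016, were not repeated. In April and May 2017 it was at 17.6 and 32.9 FPKM.

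Summer and winter dates overlapped for both. For LOC101174341 winter ran from 24.0 to 33.5 FPKM (median 28.1) and summer from 19.6 to 63.5 FPKM (median 45.8), a difference of 0.41 ± 0.35 with an adjusted p of 0.326. For LOC101173939 the ranges were 7.03 to 11.3 FPKM (median 7.96) and 5.04 to 16.6 FPKM (median 9.82), a difference of 0.10 ± 0.38 with an adjusted p of 0.847. The 2 genes have 1 annotated transcript each in the table, and reads that their copies share could have been divided between them in the deposited estimates.

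Of the 3 ROR activators, 2 fell from winter to summer. ROR-beta LOC101164545 had winter dates of 5.70 to 11.5 FPKM (median 6.88) and summer dates of 2.93 to 4.47 FPKM (median 4.22), a fall of -0.73 ± 0.20 with an adjusted p of 0.00286. ROR-alpha LOC101172927 had winter dates of 3.25 to 5.59 FPKM (median 3.84) and summer dates of 1.35 to 2.56 FPKM (median 2.05), a fall of -0.77 ± 0.16 with an adjusted p of 0.000333. In both, every summer date was below every winter date. Fitted peaks were December 25 ± 11.3 days and January 29 ± 10.5 days.

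ROR-beta LOC101170052, the most abundant of the 3, ran from 46.5 to 76.0 FPKM in winter (median 56.7) and from 23.2 to 76.0 FPKM in summer (median 31.0). The summer dates split by year: those of 2016 were at or below 25.4 FPKM, whereas July and August 2017 reached 54.8 and 76.0 FPKM. With both summers together the difference was -0.66 ± 0.28 and did not pass (adjusted p 0.0534). Without the dates from April 2017 on it was -1.20 (adjusted p 0.00243), a comparison chosen after the values were seen. With the 6-month term added to the annual curve, LOC101170052 had a 6-month range of 1.07 ± 0.25 (adjusted p 0.023), with tops at January 26 and July 27.

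ROR-alpha LOC101172927 was the other gene with a 6-month term past the threshold, at 0.50 ± 0.13 (adjusted p 0.0438) and tops at January 21 and July 22. Over all genes tested, 8.55% had such a term, against 2 of the 9 here. The call of LOC101172927 was lost in 9 of the 50 fits that left out 1 library, with adjusted p up to 0.0781. The 6-month term of bhlhe41 was 0.54 ± 0.15 (adjusted p 0.0604).

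Between summer and winter, then, 0 of the 9 genes rose and 5 fell, where 31% of all genes tested rose and 23.5% fell. Of the 9, 6 had an unadjusted p under 0.05 in limma, as did 9837 of the 16493 genes tested. The dates of both seasons were separate for those 5 genes, and for 31% of all genes tested. The median difference was -0.73 over the 9 genes and 0.06 over all genes tested.

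Other measures moved with the same contrast. The sampling hour fell 2.84 h after the calculated sunset on average in winter and 1.13 h after it in summer, over a span of 0.857 to 3.31 h on all dates, so season and time after dusk cannot be told apart. The forebrain list summed to 79.9 to 112 FPKM on summer dates and to 149.8 to 196 FPKM on winter dates. This sum is weighted to 1 gene, oxt, with a mean of 87.6 FPKM, where the other matched genes had means of 4.06 to 22.1 FPKM. The 1 matched microglia gene had 3.66 to 6.86 FPKM in summer and 8.41 to 11.6 FPKM in winter. The pituitary list had 798 to 2296 FPKM in summer (median 1861) and 712 to 1638 FPKM in winter (median 980). The oligodendrocyte list had 85.2 to 155 FPKM in summer (median 103.8) and 40.8 to 93.7 FPKM in winter (median 67.7). Both lists overlapped between the seasons, with the higher median in summer. The part of these in the results was not tested.

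**Figure D2:**
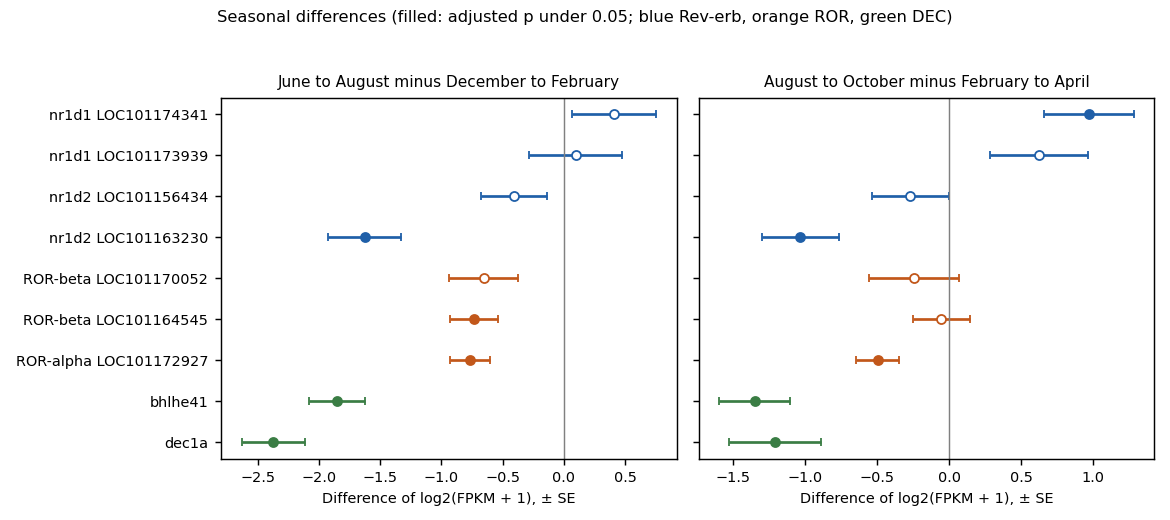
Difference in log2(FPKM + 1) with its SE for each of the 9 genes, summer minus winter on the left and falling minus rising days on the right. Filled points have an adjusted p under 0.05, and colour gives the family. Both DEC genes and nr1d2 LOC101163230 lie far left of 0 in both panels, and nr1d1 LOC101174341 is the sole filled point to the right of 0, among falling against rising days.

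Dates in autumn and in spring share their day length, and they were compared as falling and rising days. The fish lived under natural temperature, which is not given by date. The direction of day length and temperature therefore cannot be told apart in this comparison. Mean day length was 11.99 h for falling and 12.12 h for rising days, and the sampling hour was 2.29 and 1.97 h after sunset on average. Of the 9 genes, 1 was higher under falling days, against 12.9% of all genes tested, and 4 were lower, against 9.06%.

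The higher gene was nr1d1 LOC101174341. It ran from 19.6 to 108.6 FPKM under falling days (median 65.6) and from 17.6 to 55.5 FPKM under rising days (median 26.7). The means were 61.1 ± 28.2 (SD, n = 7) and 29.5 ± 13.6 FPKM (SD, n = 6), a difference of 0.97 ± 0.31 with an adjusted p of 0.0298. No rising date reached 5 of the 7 falling dates, while August 2017, at 19.6 FPKM, was the lowest falling date. LOC101173939 had means of 14.5 ± 5.93 and 9.56 ± 6.60 FPKM, and its difference of 0.62 ± 0.34 did not pass (adjusted p 0.183).

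The lower genes were nr1d2 LOC101163230, ROR-alpha LOC101172927 and both DEC genes. Under falling days bhlhe41 ran from 11.6 to 41.5 FPKM (median 18.0), and under rising days from 43.9 to 71.1 FPKM (median 62.3). All 7 falling dates lay below every rising date, with a difference of -1.35 ± 0.24 (adjusted p 0.00237), and it was the only one of the 9 genes with separate groups, where 2.09% of all genes tested had them.

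The groups overlapped for dec1a, at 6.16 to 23.7 against 13.6 to 43.7 FPKM (-1.21 ± 0.32, adjusted p 0.0114). LOC101163230 was at 2.77 to 13.0 FPKM under falling and 8.60 to 17.5 FPKM under rising days (-1.04 ± 0.27, adjusted p 0.0103). LOC101172927 was at 1.31 to 2.38 against 1.58 to 4.75 FPKM (-0.50 ± 0.15, adjusted p 0.0217). Neither ROR-beta gene passed, with adjusted p of 0.589 and 0.859. The marker lists overlapped between these groups, but their medians differed. The pituitary list was at 605 to 2296 FPKM under falling days (median 840) and 805 to 1786 FPKM under rising days (median 1495). The forebrain list was at 72.3 to 195 FPKM (median 112) and 111 to 194 FPKM (median 138). The part of these lists in the results was not tested.

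The 2 years were compared month by month, October 2015 to September 2016 against October 2016 to September 2017. In the second year 1 of the 9 genes was higher, where 3.01% of all genes tested were, and 2 were lower, where 8.97% were. ROR-beta LOC101170052 rose by 0.50 ± 0.16 (adjusted p 0.0479), being higher in 10 of 12 months. This call was lost in 14 of the 50 fits that left out 1 library, with adjusted p up to 0.0542. The lower genes were nr1d1 LOC101173939, by -0.68 ± 0.20 (adjusted p 0.0377) and in 10 of 12 months, and dec1a, by -0.33 ± 0.08 (adjusted p 0.0132) and in 12 of 12 months. The fall of dec1a was uneven. In March, June and August its second year was 0.995, 0.968 and 0.989 times the first, and the libraries of the 2 years overlapped.

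The months differed in this respect. In each of the 6 months from April to September, both nr1d1 genes were lower and the 3 ROR genes of the rule higher in the second year. The ROR genes outside the rule went the other way over the whole year. In limma, rorb was lower by -0.26 ± 0.08 (adjusted p 0.0397), and rora, at -0.13 ± 0.05, did not pass (adjusted p 0.109). The year effect of April to September minus that of October to March was -0.001 ± 0.16 for rorb and 0.02 ± 0.10 for rora. No share of all genes that were lower or higher in each of these months is given for comparison. In April LOC101173939 had 21.9 FPKM in the first year and 3.62 FPKM in the second. In August nr1d1 LOC101174341 had 63.5 FPKM and then 19.6 FPKM, and ROR-beta LOC101170052 had 23.2 FPKM and then 76.0 FPKM. The 2 libraries of each of these dates lay close together, at 65.5 and 61.5 FPKM in August 2016 and 19.8 and 19.5 FPKM in August 2017 for LOC101174341.

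Fits of each part of the year alone, also added after the values were seen, gave for nr1d1 LOC101174341 -1.14 ± 0.19 from April to September, which did not pass (adjusted p 0.0522), and 0.26 ± 0.07 from October to March (adjusted p 0.0214). From October to March, 7.36% of all genes tested were higher in the second year and 22.6% lower, and of the 9 genes dec1a was the lower one. From April to September the shares were 0.17% and 0.121%, with nr1d1 LOC101173939 lower by -1.28 ± 0.20 (adjusted p 0.0433). The test of the difference of the year effect between April to September and October to March was a further addition of that kind. It gave -1.40 ± 0.22 for LOC101174341 (adjusted p 0.0436), the only one of the 9 genes to pass, and it was lost in 11 of the 50 fits that left out 1 library, with adjusted p up to 0.0697. Of all genes tested, 0.0182% passed with a positive and 0.0182% with a negative difference. LOC101173939 (-1.20 ± 0.26), ROR-beta LOC101170052 (0.92 ± 0.21) and ROR-beta LOC101164545 (0.61 ± 0.17) did not pass, with adjusted p of 0.0645, 0.0649 and 0.0795.

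The year difference of bhlhe41 was -0.11 ± 0.07 (adjusted p 0.36), with -0.12 from October to March and -0.09 from April to September. For dec1a these were -0.35 and -0.30. The difference between the parts of the year was 0.03 ± 0.15 for bhlhe41 and 0.05 ± 0.15 for dec1a, with adjusted p of 0.925 and 0.871. A change of the annual curve between the years was found for 0 of the 9 genes in limma, where 0.0303% of all genes tested had one. An unadjusted p under 0.05 was found for 1 of the 9, LOC101174341, and for 2944 of the 16493 genes tested. The midbrain and hindbrain list moved with the year, at 39.2 to 83.4 FPKM from April to September of the first year and 33.0 to 40.5 FPKM in the second. The pituitary list was at 798 to 2296 (median 1330) and then 1086 to 2000 FPKM (median 1678) in those months. The oligodendrocyte list was at 104 to 170.1 (median 136) and then 85.2 to 118 FPKM (median 103). Their part in the year differences was not tested.

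**Figure D3:**
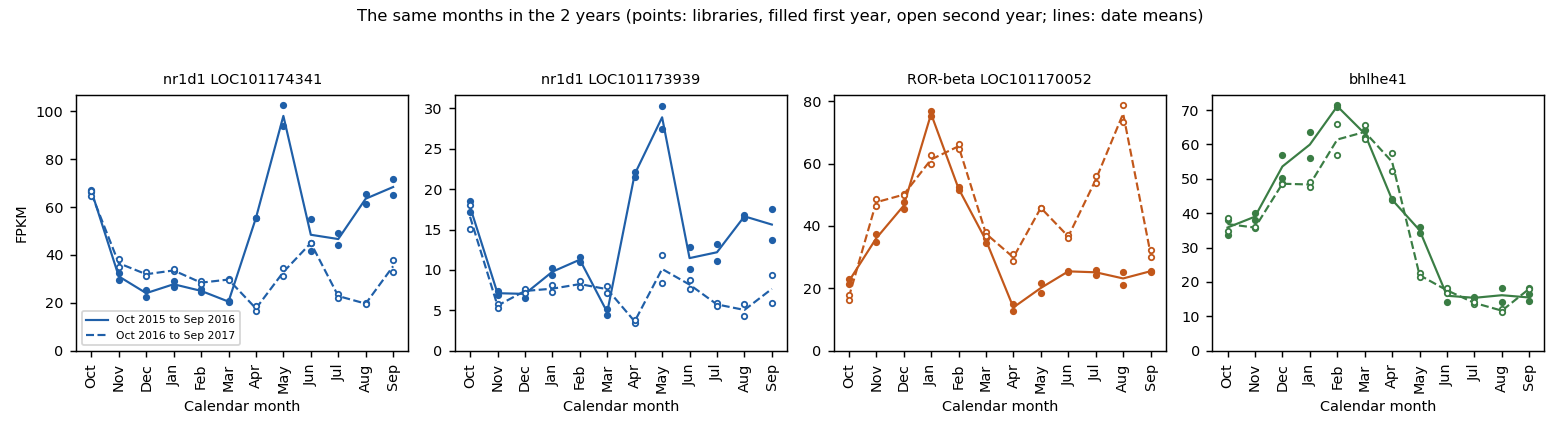
FPKM by calendar month from October to September for nr1d1 LOC101174341, nr1d1 LOC101173939, ROR-beta LOC101170052 and bhlhe41. Solid lines and filled points are the first year, dashed lines and open points the second, points are libraries and lines date means. The years lie closer together from October to March than from April on for the nr1d1 genes and ROR-beta, while both lines of bhlhe41 fall from March to June.

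September was sampled in 3 years, and 5 of the 9 genes had a lower level at each later September. Among them are the 4 Rev-erb genes, with nr1d1 LOC101174341 at 108.6, 68.4 and 35.3 FPKM, nr1d1 LOC101173939 at 21.8, 15.6 and 7.65 FPKM, nr1d2 LOC101156434 at 23.2, 15.2 and 4.84 FPKM, and nr1d2 LOC101163230 at 11.8, 5.66 and 3.09 FPKM. The 2 libraries of September 2017 gave 4.17 and 5.50 FPKM for LOC101156434, the lowest date of that gene. The other was dec1a, at 23.7, 7.27 and 6.47 FPKM. For dec1a the libraries of September 2016 (6.75 and 7.78 FPKM) and September 2017 (6.02 and 6.91 FPKM) overlapped. The Septembers are 3 dates without a test, and no share over all genes is given beside the count. They were sampled on September 29, 28 and 19 of the successive years, at day lengths of 11.82, 11.82 and 12.19 h. The first of these dates also lies before a change in the midbrain and hindbrain list, and the later ones after it. That list summed to 63.2 to 83.5 FPKM on dates to June 2016 and to 32.7 to 42.0 FPKM on dates from July 2016. Its part in the September levels was not tested.

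Rev-erb and ROR proteins act on the same elements, so the sums of their transcripts were set side by side. The sum of the 4 Rev-erb genes over that of the 3 ROR genes was lowest in August 2017, at 0.427, and highest in May 2016, at 6.53, with a median of 1.41. It was 0.796 to 1.25 on the winter dates of both years and 0.427 to 3.65 on the summer dates, so the winter values form a narrow band inside the summer range. The summed DEC level ran from 17.8 to 25.2 FPKM in summer and from 77.0 to 118.6 FPKM in winter, with no overlap. These are sums of transcript levels, in which the most abundant genes weigh most, and they leave out rora, rorb and dec1b. With rora and rorb counted among the ROR genes, the ratio ran from 0.371 in August 2017 to 3.62 in May 2016, with 0.649 to 0.973 on winter dates. With dec1b, the DEC sum was 41.8 to 62.1 FPKM in summer and 161.9 to 262 FPKM in winter.

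**Figure D4:**
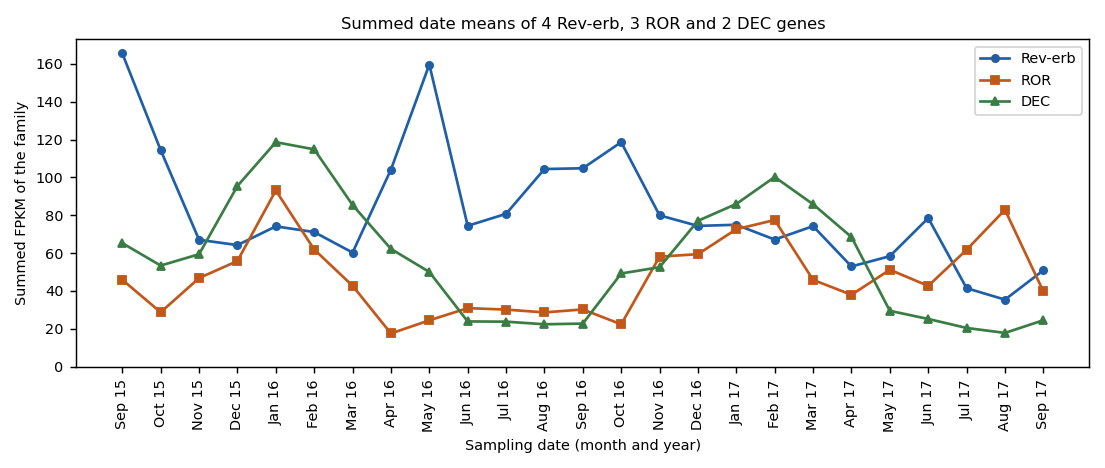
Summed FPKM of the 4 Rev-erb, 3 ROR and 2 DEC genes (vertical axis) on the 25 sampling dates (horizontal axis), 1 line per family. The Rev-erb sum reaches 165.5 FPKM in September 2015 and 159.6 FPKM in May 2016, the DEC sum tops in both winters, and in August 2017 the ROR sum is 82.9 FPKM with a Rev-erb sum of 35.4 FPKM.

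Likeness between the genes was measured as Pearson's r over the 25 date means of log2(FPKM + 1), with Spearman's rho beside it. Neighbouring dates are not independent and all share the yearly course, so no p is given. The nr1d1 genes ran together, with r of 0.903 and rho of 0.838, and r of 0.918 once the annual curve of each was removed. For the nr1d2 genes r was 0.668 and rho 0.395.

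The nr1d2 gene LOC101163230 had r of 0.913 to bhlhe41 and 0.875 to dec1a (rho 0.876 and 0.884), above its r to the other Rev-erb genes. That order turned without the annual curve, where r was 0.617 to bhlhe41, 0.37 to dec1a and 0.74 to nr1d2 LOC101156434. The DEC genes had r of 0.901 with each other (rho 0.865), and 0.472 without the annual curve. Within the ROR family r was 0.677 to 0.785, and 0.54 to 0.799 without the curve.

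All 6 pairs of an nr1d1 with a ROR gene had a negative r, from -0.389 to -0.652. Between nr1d1 LOC101174341 and ROR-beta LOC101170052 r was -0.652 and rho -0.653, with -0.63 after removal of the annual curve. Without the 2 dates farthest from the median of LOC101174341 it was -0.711. For nr1d1 LOC101173939, leaving out its 2 farthest dates moved r from -0.623 to -0.50 with ROR-beta LOC101170052, from -0.439 to -0.217 with LOC101164545 and from -0.495 to -0.431 with LOC101172927.

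**Figure D5:**
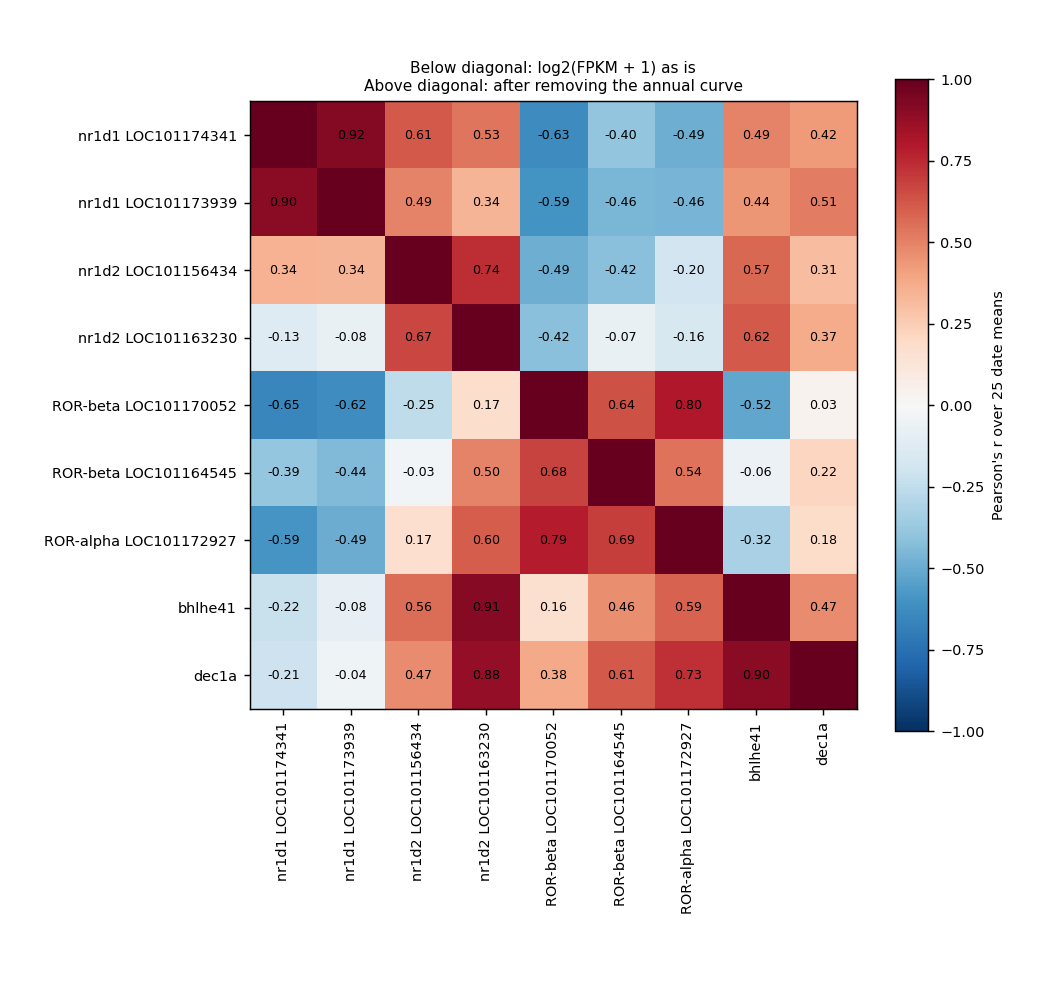
Pearson's r between the 9 genes over 25 date means, log2(FPKM + 1) below the diagonal and the residuals from the annual curve above it, on a colour scale from -1 to 1. The nr1d1 pair stays at 0.90 and 0.92 on both sides, the ROR genes form a positive block, and nr1d1 against ROR is negative on both sides.

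Among genes with a symbol, those with the most similar series were named for each gene, 3 where given, again over 25 dates. For nr1d2 LOC101163230 they were amd1 (0.939), which encodes a polyamine synthesis enzyme, the clock repressor per1 (0.934) and the sodium-proton exchanger gene slc9a7 (0.934). For bhlhe41 they were amd1 (0.917), gramd1b (0.909) and glt1d1 (0.906), and for dec1a sdr16c5, kctd10 and cdpf1, each at 0.946.

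ROR-alpha LOC101172927 lay nearest to abhd4 (0.915), the nuclear receptor coactivator gene pnrc2 (0.90) and the DNA repair gene ercc6 (0.898). ROR-beta LOC101170052 lay nearest to lonrf1 (0.865), chchd2 (0.861) and crebrf (0.846), and LOC101164545 to pdcd7 (0.85), nup58 (0.816) and homez (0.81). Within this search the nr1d1 genes had less close neighbours, although r between the 2 nr1d1 genes was 0.903. The neighbours were ttyh1 (0.74), efnb1 (0.724) and disp3 (0.72) for LOC101174341 and tep1 (0.712), cdh22 (0.695) and thbs1 (0.694) for LOC101173939. For nr1d2 LOC101156434 the highest was ppm1e (0.737).

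The 3 family genes outside the rule were set beside the 9. The second DEC1 gene, dec1b, was at 28.1 ± 6.73 FPKM in summer (SD, n = 6) and 109.7 ± 22.0 FPKM in winter (SD, n = 6), with ranges of 18.1 to 36.9 and 84.9 to 143 FPKM. Its difference of -1.94 ± 0.34 passed (adjusted p 4.06e-05), so all 3 DEC genes fell from winter to summer. The gene rorb was at 2.79 ± 1.04 against 4.56 ± 0.736 FPKM (-0.58 ± 0.16, adjusted p 0.0035), and rora at 12.5 ± 2.66 against 14.9 ± 1.19 FPKM (-0.25 ± 0.11, adjusted p 0.0602). All 3 were lower under falling than under rising days, where 9.06% of all genes tested were. The differences were -1.05, -0.31 and -0.61 for dec1b, rora and rorb, with adjusted p of 0.0164, 0.0289 and 0.00765 in limma.

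Differences between summer and winter were small for the corepressor gene ncor1 and the deacetylase gene hdac3, though both passed the test. The gene ncor1 fell by 0.22 ± 0.08 (adjusted p 0.0262) and hdac3 rose by 0.23 ± 0.09 (adjusted p 0.0343). Under falling against rising days neither passed in limma, with adjusted p of 0.474 and 0.25.

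The rest of the clock was represented by 32 genes, of which 31 were tested. The annual curve passed for 27 of them (53.4% of all genes tested), with a median range of 1.08. In summer 10 were higher and 17 lower than in winter (31% and 23.5% of all), with a median difference of -0.43. Under falling days 9 were higher and 11 lower (12.9% and 9.06% of all), and in the second year 1 was higher and 1 lower (3.01% and 8.97% of all). The 4 with the smallest adjusted p in the annual curve were cry1 LOC101160902 (range 5.41, peak in January), cry1 LOC101164536 (2.40, July), cry2 LOC101173389 (1.35, January) and ciart LOC101172421 (4.44, January). The cryptochromes and ciart encode repressors of CLOCK and BMAL1.

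The arntl genes, among the targets of Rev-erb and ROR in mammals, stood opposite to the winter genes of the loop. All 3 arntl genes were higher in summer, LOC101174183 by 0.94 ± 0.15 (adjusted p 2.2e-05), LOC101175041 by 0.77 ± 0.26 (adjusted p 0.0163) and LOC101159313 by 0.41 ± 0.12 (adjusted p 0.007). The clock genes LOC101165450 and clock were higher as well, by 0.45 ± 0.07 and 0.50 ± 0.11 (adjusted p 1.88e-05 and 0.000758). These were picked for their place in the loop after their values were seen.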

How the data were processed

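RNA of 50 libraries was measured with poly-A selection, strand-specific paired-end libraries and reads of 100 bases, per the labels' protocols. The authors deposited FPKM values for 23455 genes. Bowtie2 2.2.5 and RSEM 1.2.12 are named in the submitters' processing notes, with no role. Neither the genome build nor the annotation is named in the sources used here. Read counts were not used, and no coordinates, depth or counting interval are printed. Names come from the table, and all 9 identifiers were matched in RefSeq's table for assembly ASM223467v1.

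From these values, log2(FPKM + 1) was averaged over the 2 libraries of a date. The 16493 genes averaging 1 FPKM or more entered linear models in limma 3.58.1 (R 4.3.3) that allow a trend of the variance, with Benjamini-Hochberg adjustment over all of them and a threshold of 0.05. Seasonal contrasts compared 3-month means in a fit of 4 such blocks to all 25 dates, and years were compared with calendar month as a block over 12 dates a year, September 2015 left out. Day length was calculated from date and latitude, and sunset from these and the longitude. The models were tested on simulated data. Tables and figures used pandas 2.3.3 and matplotlib 3.10.9 under Python 3.11.15.

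The genes, lists and tests were chosen with earlier results of these data known. Every gene of the rule is named, and up to 4 other clock genes with the smallest adjusted p in the annual curve. Up to 3 genes with the most similar series were taken for each gene of the rule, outside the 9 and without LOC numbers. Not all of these are reported here. The arntl and clock genes, dec1b, rora and rorb, the 9 clock genes matched by symbol, and the test between parts of the year were added after the table was seen. Both September 2015 titles carry the same number. Replicate numbers did not pair the libraries: over 276 pairs of dates, deviations of replicate 1 from its date mean correlated at -0.114 to 0.138, 8 of them over 0.1.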

Additional observations from a re-analysis of the deposited data

Results flagged for a closer look

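Single dates stood apart within a season for 4 of the 36 groups of dates examined. The rule flags about 5% of groups of independent values. The groups here share dates, and neighbouring dates are not independent, so the share that chance gives here is not known. Among rising days, nr1d1 LOC101174341 had 55.49 FPKM in April 2016, and the next highest of the 6 dates had 29.7 FPKM. Both libraries of April 2016 gave the high value, at 55.6 and 55.3 FPKM. Among falling days, ROR-beta LOC101170052 had 76.04 FPKM in August 2017, from libraries of 78.7 and 73.4 FPKM, and the next of the 7 dates had 36.7 FPKM. In winter, ROR-beta LOC101164545 had 11.53 FPKM in January 2016, from libraries of 12.2 and 10.9 FPKM, against 7.28 FPKM on the next date. The last case rests on 1 library: nr1d2 LOC101156434 had 13.59 FPKM in February 2017, with 17.4 FPKM in one library and 9.76 FPKM in the other, below 17.3 FPKM on the next lowest winter date.

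The year difference of nr1d1 LOC101174341 differed between April to September and October to March by -1.397 on the log2 scale, the tested difference given above, with an adjusted p of 0.0436 in limma that was lost in 11 of the 50 fits without 1 library.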

How the results depend on the processing

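Numbers of the 9 genes past the threshold were 5 for the annual curve, 5 between summer and winter, 5 for falling against rising days, 3 for year 2 against year 1, 2 for the 6-month term, 0 for the curve between years and 1 for the later test between parts of the year. With a pseudocount of 0.1 the 6-month count was 1, and 1434 over all genes tested. Without the filter on low values the counts were 1 between years, 1 for the 6-month term and 0 between parts of the year, with more genes tested. Of those 23455 genes, 2052, 1407 and 0 passed, in the same order. From April to September only, 1 gene passed between years, on fewer dates. A setting with libraries as samples and a replicate block treats the 2 libraries of a date as independent and leaves out September 2015. With it the counts were 8 for the annual curve, 5 between years and 5 for the 6-month term. They were 1 for the curve between years and 6 between parts of the year. The calls over all 16493 genes tested were, in the same order, 10896, 5952, 4555, 3201 and 5386 under this setting. The block changed no summer, winter or falling-day call but that of LOC101170052 (adjusted p 0.00497). Leaving out each library gave 5 to 5 for the annual curve and falling days, 5 to 6 for summer against winter, 2 to 3 between years, 1 to 3 for the 6-month term, 0 to 0 for the curve between years and 0 to 3 between parts of the year. For LOC101174341 the year difference turned to 0.26 from October to March. For LOC101173939 it missed the threshold with median ratio scaling (adjusted p 0.0555) and quantile normalization (0.0561). LOC101170052 passed in summer against winter with median ratio scaling (0.0424) and with a term for the July 2016 step (0.0293), which also brought LOC101174341 past in the annual curve (0.0248). The year call of LOC101170052 ended without replicate 1 of October 2015, May, October or November 2016 or July 2017, or replicate 2 of November or December 2015, April or September 2016 or January, February, April, June or September 2017 (adjusted p 0.0502 to 0.0542). The 6-month call of LOC101172927 ended without replicate 1 of November 2015 or February 2016 or 2017, or replicate 2 of December 2015, June or July 2016 or January, April or June 2017 (0.0503 to 0.0781). The call of LOC101174341 between parts of the year ended without replicate 1 of October 2015, March, April or August 2016 or September 2017, or replicate 2 of December 2015, June, July or September 2016 or February or August 2017 (0.0506 to 0.0697). Scaling moved the split of all genes: higher against lower was 5107 to 3883 in summer, and 4579 to 4521 with median ratio or 4441 to 4530 with quantile normalization; 2131 to 1495, 1802 to 1910 and 1869 to 1933 under falling days; and 496 to 1479, 811 to 997 and 850 to 964 in the second year. The causes of these shifts were not tested. No read depth is known, so precision at low FPKM, as for LOC101172927, cannot be given.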
